A study of Mus musculus with 3 samples.

Results

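The 300 stretches of the mouse genome that were richest in Foxp3 CUT&RUN sites found by both replicates are described here. Chromosomes 1 to 19 and X of the mm10 build were divided into 26326 bins of 100 kb, counted from position 1. A shared site is a replicate 2 peak that overlapped a replicate 1 peak by at least 50% of both lengths, and it was placed by its replicate 2 summit. Bins were ordered by their number of shared sites, ties by the number of replicate 1 summits and then by position, and the first 300 were taken. They make up 1.14% of all bins and 30 Mb, and are called dense bins. The numbers of shared sites and of replicate 1 peaks therefore chose the bins, and replicate 2 peaks and the deposited peak strengths are tied to that choice because stronger peaks were shared more often. These measures are given as a description only. Genes, position and promoter sequence played no part in the choice. No test was made over bins or sites, because neighbouring bins and the sites within them are not replicates.

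Foxp3 binding was profiled in bone marrow-derived macrophages (BMDMs), cells grown from mouse marrow in M-CSF-conditioned medium, with 2 replicate libraries made with the Invitrogen antibody FJK-16s after fixation in 0.1% formaldehyde. The series title speaks of a stimulation with DAMPs (damage-associated molecules) derived from brain, a treatment that is not recorded for any of the individual samples. The remaining sample, made with IgG, was not analysed here, so the sites have no antibody control beside them. The labels do not state whether the replicates are separate cultures, and the spread between them may be technical.

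Foxp3 is a forkhead transcription factor that directs the programme of regulatory T cells. In CUT&RUN, an antibody brings a nuclease to its target in permeabilised cells, and the fragments cut free are sequenced. Mammalian genes are unevenly spread: some chromosome stretches are packed with short, widely used genes whose promoters are rich in G, C and CpG, whereas others hold long genes, few genes or tandem arrays, in which copies of a gene or repeat lie side by side. Replication-dependent histone genes are a classic clustered family, small genes without introns that supply the core and linker histones of new chromatin.

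The promoters below are those of genes on which the account of the dense bins turns. Each runs from 250 bases before the transcription start to 50 bases after it, 5′ to 3′ on the strand of the gene, from RefSeq on GRCm38.p6, the assembly whose coordinates mm10 shares. H3c6 (chr13:23562336-23562635, minus strand) and H3c8 (chr13:23535168-23535467, plus strand) encode histone H3 and lie in bin 5 of the order. Capitals mark CCAAT, read on either strand, so that ATTGG is the same word on the opposite strand.
H3c6: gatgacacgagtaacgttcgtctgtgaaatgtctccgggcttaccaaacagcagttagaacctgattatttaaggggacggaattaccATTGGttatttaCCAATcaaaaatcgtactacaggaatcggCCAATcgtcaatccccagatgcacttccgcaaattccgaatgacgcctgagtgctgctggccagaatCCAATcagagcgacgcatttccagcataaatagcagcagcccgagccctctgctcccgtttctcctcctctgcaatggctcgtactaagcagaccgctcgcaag
H3c8: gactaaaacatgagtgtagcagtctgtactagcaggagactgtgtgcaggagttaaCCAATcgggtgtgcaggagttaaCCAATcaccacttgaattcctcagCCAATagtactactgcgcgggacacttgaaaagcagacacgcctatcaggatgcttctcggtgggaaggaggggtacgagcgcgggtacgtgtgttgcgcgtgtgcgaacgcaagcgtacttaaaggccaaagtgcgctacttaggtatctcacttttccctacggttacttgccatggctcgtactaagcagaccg

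The next 3 show how far promoters in the dense bins differ. Gm21119 (chr8:20614677-20614976, plus strand) lies in a tandem array, and its 300 bases are identical in Gm15319 (chr8:20363153-20363452, minus strand) and 4930467E23Rik (chr8:19729326-19729625, plus strand), each in another dense bin. Gm11595 (chr11:99772864-99773163, minus strand) lies among keratin-associated protein genes. Zfp598 (chr17:24669437-24669736, plus strand), which encodes a ubiquitin ligase of stalled ribosomes, stands for the packed, GC-rich stretches. Capitals mark ATTGG in Gm21119, TATAAA on the strand of the gene in Gm11595 and GGGCGG in Zfp598.
Gm21119: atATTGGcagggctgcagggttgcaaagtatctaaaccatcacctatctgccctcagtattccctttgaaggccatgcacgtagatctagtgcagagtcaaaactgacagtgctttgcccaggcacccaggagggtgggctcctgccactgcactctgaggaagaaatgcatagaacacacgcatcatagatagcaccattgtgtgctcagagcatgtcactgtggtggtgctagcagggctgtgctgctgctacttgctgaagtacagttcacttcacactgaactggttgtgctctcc
Gm11595: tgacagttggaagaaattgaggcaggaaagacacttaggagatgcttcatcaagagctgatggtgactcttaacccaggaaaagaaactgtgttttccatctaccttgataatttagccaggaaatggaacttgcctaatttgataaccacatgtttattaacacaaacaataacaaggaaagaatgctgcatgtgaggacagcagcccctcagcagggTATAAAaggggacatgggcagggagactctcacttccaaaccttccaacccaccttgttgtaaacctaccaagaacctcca
Zfp598: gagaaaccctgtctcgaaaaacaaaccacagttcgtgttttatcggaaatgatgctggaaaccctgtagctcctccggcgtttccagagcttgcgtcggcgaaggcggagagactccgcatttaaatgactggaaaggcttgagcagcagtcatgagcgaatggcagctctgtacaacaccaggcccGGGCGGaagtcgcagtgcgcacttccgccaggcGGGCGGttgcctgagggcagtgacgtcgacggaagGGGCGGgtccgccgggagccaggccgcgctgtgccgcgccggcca

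The printed promoters span a wide range of base composition. The GC content was 61.7% in Zfp598, with 29 CpG, and 43.3% in Gm11595, with 0 CpG. H3c6 had 49.7% GC and H3c8 51.7%, each with 18 CpG, and Gm21119 had 51.3% with 2 CpG. Of the 300 printed bases, 243 lay within the peaks of both replicates in Gm21119, 168 in Zfp598, 77 in H3c6, 25 in Gm11595 and 17 in H3c8. The last 3 therefore had most of their peak past the printed stretch, inside the gene.

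The libraries differ in the number of peaks called. From 33294105 fragments replicate 1 gave 556535 peaks, whereas 34898401 fragments of replicate 2 gave 95135. By the overlap rule, 5.62% of replicate 1 peaks and 32.9% of replicate 2 peaks were shared. Of 31253 shared sites, 31111 lay on the 20 chromosomes used. Peak lists hold no expression levels, so the cell type could be checked by peaks only. Of all protein-coding genes, 58.0% had a shared site in or within 1 kb of the gene and 6.44% lay in a dense bin. Of 8 genes that mark macrophages, 4 had a shared site and 0 lay in a dense bin. Of 5 T cell markers 2 had a shared site and of 4 neutrophil markers 1 had, and 0 of either lay in a dense bin. Of 4 B cell markers 2 had a shared site and 2 lay in a dense bin. With so few markers these counts do not show the cell type.

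The dense bins held 2216 shared sites, which is 7.12% of those on the 20 chromosomes and 6.25 times their share of the bins. They held 2.51% of all replicate 1 summits and 4.22% of all replicate 2 summits. The median bin had 7 shared sites among the dense bins and 1 among the other 26026. For replicate 1 summits the medians were 47.5 in the dense bins and 17 in the other bins, and for replicate 2 summits 13 in the dense bins and 3 in the other bins. Of the replicate 2 peaks, 55.4% were shared in the dense bins and 31.8% in the other bins.

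The order falls off steeply at its head. The first bin had 25 shared sites, the next 2 had 15 each, and the following bins had 14, 13 and 12. There were 203 bins with at least 7 shared sites, all of them chosen. Of 217 bins with 6, the 97 with the most replicate 1 summits were taken. The last 3 bins inside, at chr7:19100001-19200000, chr7:44900001-45000000 and chr8:83600001-83700000, and the first 3 outside, at chr10:62200001-62300000, chr11:74800001-74900000 and chr15:84100001-84200000, all had 6 shared sites and 45 replicate 1 summits. The bins at the edge of the choice thus differ from those just outside by position alone.

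**Figure D1:**
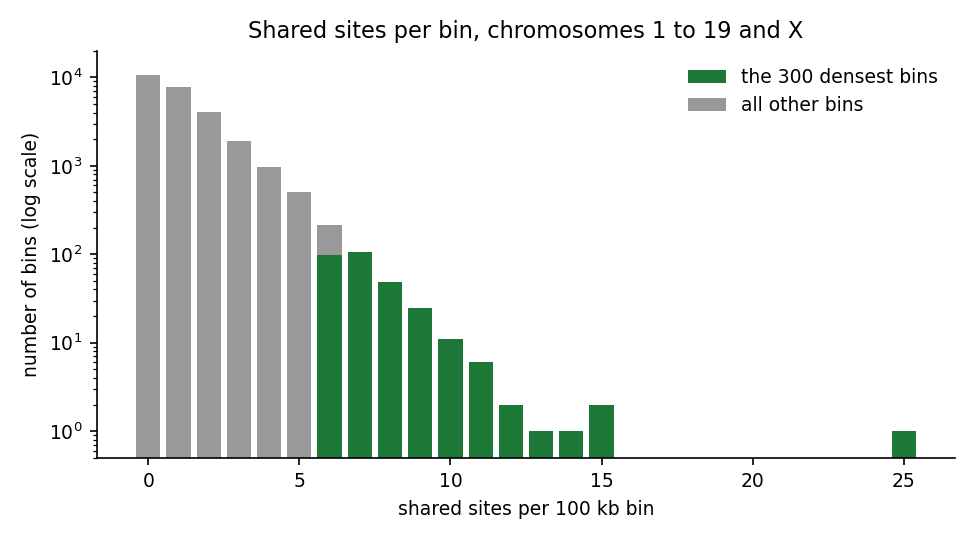
Number of 100 kb bins (log scale) by the number of shared sites in the bin, with the 300 dense bins in green and the other 26026 bins in grey. The chosen bins run from 6 to 25 shared sites, and the column at 6 is split because 97 of its 217 bins were chosen.

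The dense bins lay where genes are packed. They overlapped a median of 4 protein-coding genes (mean 4.74), against 1 (mean 1.18) in the other bins. When the 300 bins were chosen without replicate 2, only 50 of them were chosen again and the mean was 2.69 genes per bin, and without replicate 1 it was 4.15. At least 5 genes were found in 144 dense bins (48.0%) and in 3.48% of the other bins. No protein-coding gene was found in 6 dense bins (2.00%) and in 37.4% of the other bins. Seen from the genes, 0.0617% of bins without a gene were dense, 1.101% of those with 2 genes, 9.08% of those with 5 or 6, 22.6% of those with 7 to 9 and 33.9% (20 of 59) of those with 10 or more. The share of dense bins was higher in each class with more genes.

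Spearman's rho between genes and shared sites was 0.16 over the 300 dense bins, whose range of shared sites the choice restricts, and 0.44 over the 25686 bins with a peak in either list. Over those 25686 bins it was 0.47 with replicate 1 summits and 0.46 with replicate 2 summits. These are descriptions, since bins share libraries and neighbours. Of the first 25 bins, 7 had 0 or 1 gene and 13 had at least 5. Of the bins ranked 26 to 100, 7 had 0 or 1 gene and 47 had at least 5.

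Shared sites of the dense bins lay more often at and inside genes. Of the 2216, 756 (34.1%, 95% exact binomial interval 32.1 to 36.1%) lay no more than 1 kb from either end of a protein-coding gene, against 27.2% (26.7 to 27.8%) in the other bins. A further 44.3% lay inside genes away from the ends, against 34.5%, and 21.6% lay between protein-coding genes, against 38.2%. Ends are the outermost annotated positions of a gene, so a site at another start within it counts as inside. In bin 9, for example, a site 2 bp from a listed start counted as inside a gene. The share inside genes therefore includes some sites at starts, here and in the classes below. The intervals cover counting error only.

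Within bins of similar gene number the picture of the gene ends turned. In bins with at least 5 genes, 49.1% of shared sites lay at gene ends in the dense bins and 55.5% in the other bins, while 42.5% lay inside genes in the dense bins and 32.8% in the other bins. Counted per bin, the dense ones had 3.68 shared sites at gene ends and 3.19 inside genes, and the other bins had 1.59 at gene ends and 0.940 inside genes. In bins with 2 to 4 genes, 25.3% of shared sites lay at gene ends in the dense bins and 40.5% in the other bins. In bins with 0 or 1 gene, 6.67% of shared sites lay at gene ends in the dense bins and 11.99% in the other bins. The higher share at gene ends over all dense bins was thus not found within any of the 3 classes. Per bin, sites at gene ends and inside genes were more numerous in the dense bins of each class, which were chosen for more shared sites.

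**Figure D2:**
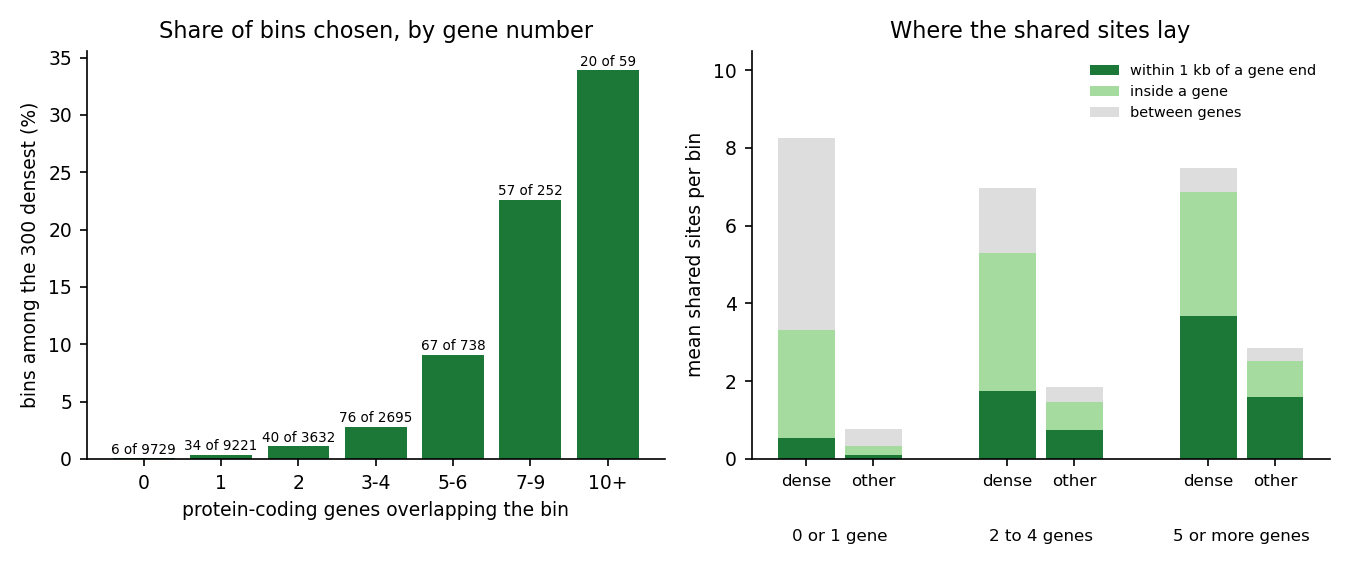
Left, the percentage of bins that were dense by the number of protein-coding genes overlapping the bin, with the number of dense bins of all bins above each column. Right, mean shared sites per bin at gene ends, inside genes and between genes, in dense and other bins with 0 or 1, 2 to 4, and 5 or more genes. The dense share was 0.0617% without a gene and 33.9% with 10 or more.

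Shared sites were most frequent just after the transcription start in both kinds of bin. Starts are known for 17274 of 21631 protein-coding genes, from the RefSeq promoter table, which gives 1149 starts in dense bins and 19896 in other bins. None is listed on chromosome 18, so its genes, including those of its 3 dense bins, entered no result on starts or promoters. In the first 250 bp after the start there were 26.3 shared sites per 100 starts in the dense bins and 16.1 in the other bins. In the 250 bp before the start there were 10.8 in the dense bins and 8.42 in the other bins. Averaged over whole bins, a window of 250 bp held 1.85 shared sites per 100 windows in the dense bins and 0.278 in the other bins. Of the sites within 1 kb of a start, 74.1% lay downstream in the dense bins and 73.3% in the other bins, at median positions of 126 bp after the start in the dense bins and 125 bp in the other bins. The median place of the sites relative to the start thus differed by 1 bp. Their number was higher in the dense bins both at starts and over whole bins, which follows at least in part from choosing bins by shared sites. Relative to the average window, the rise just after the start was larger in the other bins.

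**Figure D3:**
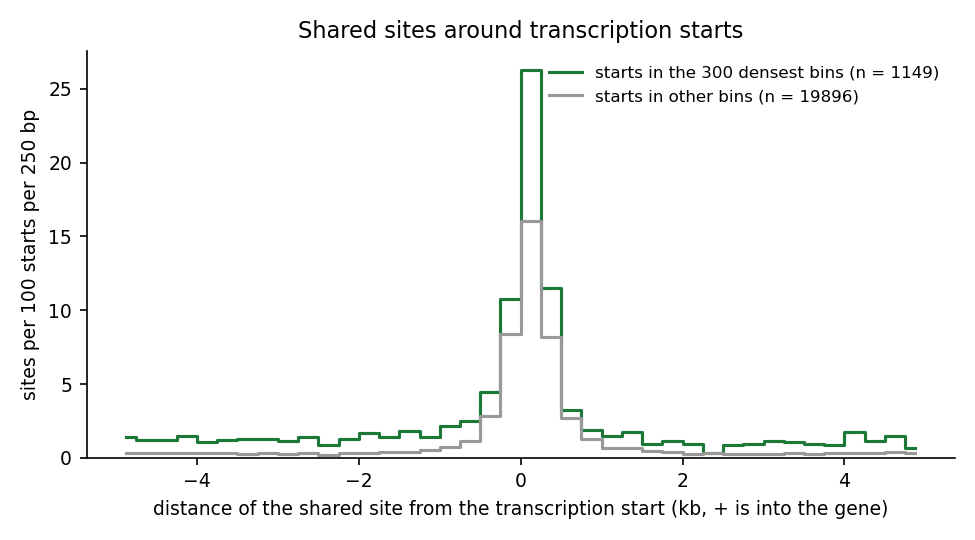
Shared sites per 100 transcription starts in steps of 250 bp, from 5 kb before the start to 5 kb after it, for 1149 starts in dense bins (green) and 19896 in other bins (grey). Both curves are highest in the first 250 bp after the start, at 26.3 for dense bins and 16.1 for other bins.

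Neighbouring shared sites lay a median of 9343 bp apart in the dense bins and 20386 bp apart in other bins. Gaps under 5 kb made up 25.1% in the dense bins and 11.6% in the others. A denser bin has shorter gaps by construction, and these values only give the scale.

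The 300 bins were spread over all 20 chromosomes, most of them over gene-rich ones. Chromosome 7 held 35, chromosome 11 held 32, chromosome 8 held 29 and chromosome 5 held 27. As a share of the chromosome's own bins, chromosome 11 led with 2.62%, followed by chromosome 19 with 2.44%, chromosome 7 with 2.41%, chromosome 8 with 2.24% and chromosome 17 with 2.11%. Chromosomes 7, 11, 19 and 17 are also the 4 with the most protein-coding genes per Mb, while chromosome 8 is ninth. The X chromosome had 1 dense bin (0.0585% of its bins), and chromosomes 3 and 16 had 2 each.

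Of the 300, 83 (27.7%) lay next to another dense bin, in 37 runs of 2 or more. The longest run had 4 bins, chr7:19100001-19500000, with 30 shared sites and 21 genes. It includes Fosb, an AP-1 subunit, Ercc1 and Ercc2, which act in nucleotide excision repair, Vasp, an actin-binding protein, and Ckm, the creatine kinase of muscle. A run of 3 bins at chr11:99600001-99900000 also held 30 shared sites, among 24 genes of the keratin-associated cluster. The 481 bins directly beside dense bins had a median of 3 shared sites, and 7.48% of them had none, against 40.7% of all bins outside the choice.

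The first 25 bins ranged from 0 to 15 protein-coding genes. The first bin, chr9:3000001-3100000, is the lowest bin of chromosome 9 with any peak. It had 61 replicate 1 peaks, 32 replicate 2 peaks and 25 shared sites, all outside protein-coding genes. The highest pileup, the number of fragments over a summit, was 762 in replicate 1 and 15510 in replicate 2, and 26 of its replicate 2 peaks reached 1000 fragments, against 0 in replicate 1. The pileups of the replicates thus differed by far in this bin. Its median fold enrichment, the deposited ratio of pileup to a background term of the same library, was 4.35 in replicate 1 and 3.20 in replicate 2. The only gene annotated there is Mir101c (chr9:3038680-3038698 for the mature miRNA, minus strand), whose RefSeq sequence is shown because nothing else is annotated in the bin, with the seed in capitals.
mmu-miR-101c: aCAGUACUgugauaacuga

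The second bin, chr7:59700001-59800000, had 42 replicate 1 peaks, 27 replicate 2 peaks and 15 shared sites. It holds 40 small nucleolar RNA genes and their host transcript Snhg14, a long non-coding RNA of the imprinted Prader-Willi region, and no protein-coding gene. Bin 24, chr6:47700001-47800000, had 10 shared sites, none at the end of a protein-coding gene, and holds Rny1 and Rny3, which encode Y RNAs. Its shared peaks had median lengths of 813 bp in replicate 1 and 759.5 bp in replicate 2, against 345 and 305 bp over the dense bins. Bin 27, chr8:123500001-123600000, had 9 shared sites and holds 36 ribosomal RNA genes, most of them named as 5S copies. Its median fold was 2.51 in replicate 1 and 2.40 in replicate 2, below the 7.11 and 4.15 over all dense bins. All 3 bins carry arrays or groups of small non-coding RNA genes, and 0 of their shared sites lay at the end of a protein-coding gene.

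A stretch of chromosome 8 gave 6 dense bins, of ranks 3, 11, 22, 91, 93 and 202, with 59 shared sites. Of these, 3 lay at gene ends and 45 between protein-coding genes. The gene-end sites were at Gm21119, Gm15319 and Gm40469, while the bin of 4930467E23Rik had 0 of them. The identical promoters of Gm21119, Gm15319 and 4930467E23Rik, printed above, were each covered by a shared site. Replicate 1 fold enrichments were 13.2, 12.996 and 15.4, and replicate 2 fold enrichments were 3.24, 2.77 and 3.91. The summits lay 132, 128 and 159 bp before the start in replicate 1 and 139, 138 and 174 bp before it in replicate 2. In replicate 2 all 3 were below the median of 4.15 over the dense bins, and in replicate 1 all 3 were above the median of 7.11. How reads were divided between identical copies is not stated by the labels or file headers, so the 3 sites cannot be told apart.

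Bin 4, chr11:3100001-3200000, is the lowest bin of chromosome 11 with any peak and holds Sfi1, a centrosome-associated protein. Of its 14 shared sites, 13 lay in or within 1 kb of Sfi1. The highest pileup was 2002 fragments in replicate 1 and 1337 in replicate 2. At the site within 1 kb of an end of Sfi1 replicate 1 had 6.88-fold enrichment and replicate 2 had 7.04-fold (mean 6.96 ± 0.112, SD, n = 2). Bins 1 and 4 were the dense bins that begin the peaks of a chromosome, and also the ones with peaks of 1000 fragments or more.

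The members of the histone family and the other families below were grouped after their values were seen. Members of a cluster fall into the same bins together, so the percentages of a family count genes, not independent places. Of 63 replication-dependent histone genes, 46 (73.0%) lay in 4 dense bins, against 6.44% of all 21631 protein-coding genes (1393 genes) in any dense bin. Counted by bin, 33.9% of all bins with 10 or more protein-coding genes were dense, and the 4 histone bins are among these. Bin 5, chr13:23500001-23600000, had 26 replicate 1 peaks, 15 replicate 2 peaks and 13 shared sites among 15 histone genes, 11 of them at gene ends. It also holds 13 transfer RNA genes. The bins at chr13:21700001-21800000, chr13:23700001-23800000 and chr3:96200001-96300000 had 9, 8 and 8 shared sites. Of the 38 shared sites in the 4 bins, 35 (92.1%) lay at gene ends.

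Of the 46 histone genes in these bins, 40 had a shared site in or within 1 kb of the gene, some of them sharing 1 site with a neighbour. All classes were represented: 11 of 11 H2A genes, 11 of 11 H2B genes, 11 of 12 H3 genes, 5 of 8 H4 genes and 2 of 4 linker histone H1 genes. Replicate 1 gave H3c6 a 27.5-fold enrichment and replicate 2 gave it 9.03-fold (mean 18.3 ± 13.05, SD, n = 2), and H3c8 had 15.7 and 6.23. At H2bc9 the values were 28.4 in replicate 1 and 4.91 in replicate 2, and at H1f3 6.72 and 4.91. H3c4, H4c4 and H4c14 had none. Over the 40 genes the fold enrichment had a lowest, median and highest value of 6.72, 11.05 and 28.4 in replicate 1 and of 3.53, 5.45 and 9.03 in replicate 2. Outside the dense bins, 14 of the other 17 histone genes also had a shared site. The share of all protein-coding genes with such a site was 81.8% in dense bins and 56.3% elsewhere, so the count in the dense bins is near that of other genes there.

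**Figure D4:**
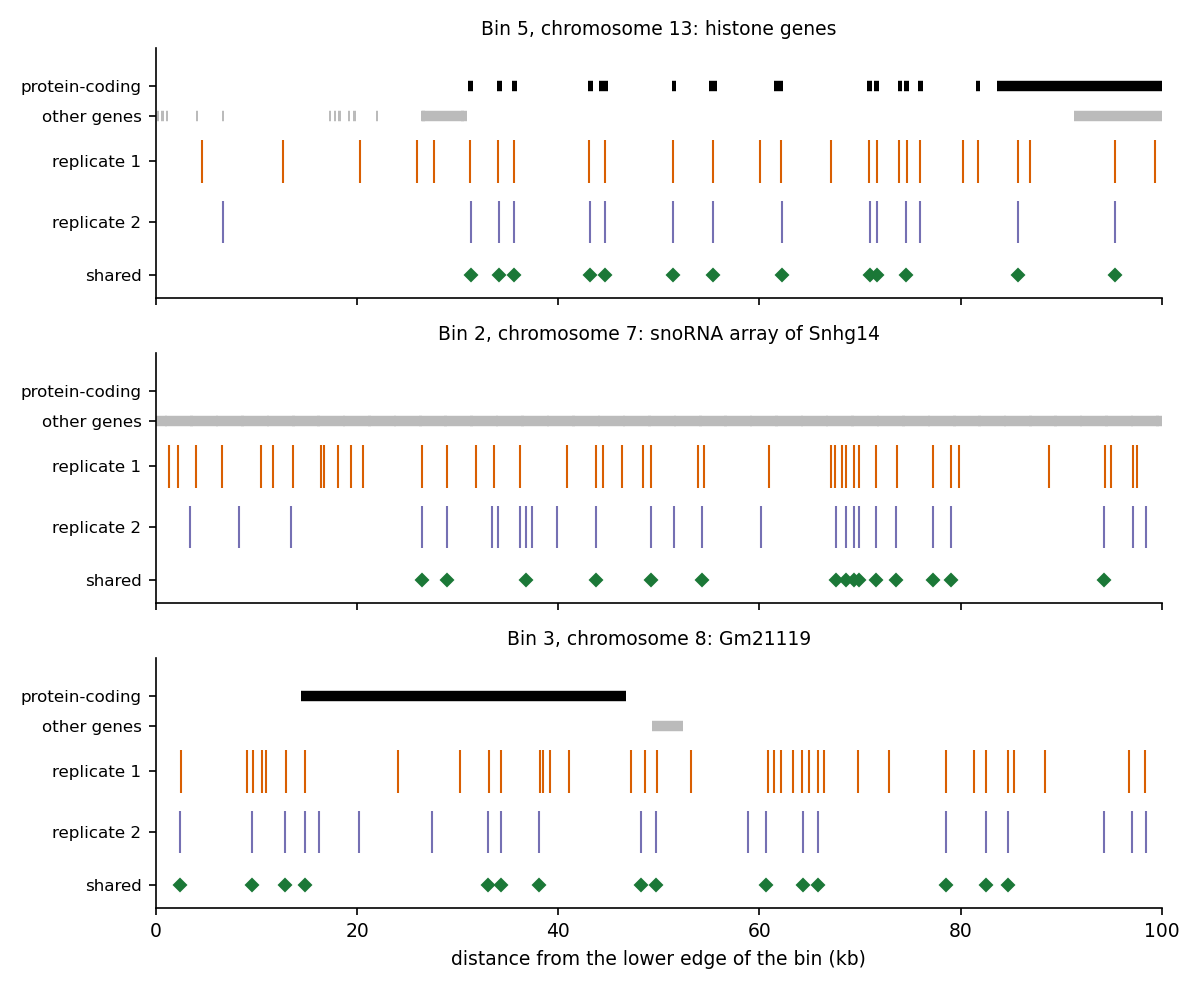
Maps of bins 5, 2 and 3, with distance from the lower edge of the bin in kb. Black bars are protein-coding genes, grey bars other genes, orange and purple lines the summits of replicate 1 and replicate 2 peaks, and green diamonds shared sites. In the histone bin 11 of 13 shared sites sit at gene ends, in the snoRNA bin 15 lie along a continuous array, and in the bin of Gm21119 11 of 15 lie between protein-coding genes.

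Keratin-associated protein genes, which encode hair shaft proteins, gave the strongest shared sites of the first 25 bins by bin median. Bin 13, chr11:99700001-99800000, had 23 replicate 1 peaks and 11 replicate 2 peaks, and all 11 of the latter list were shared, the only dense bin where that was so. Its median fold was 18.0 in replicate 1 and 6.48 in replicate 2. Bin 23, directly before it, had 17.7 and 7.26. At Krtap4-8 the values were 21.2 and 7.46 (mean 14.3 ± 9.74, SD, n = 2), and at Gm11563 18.2 and 9.62. The 3 bins of the cluster held 30 shared sites, of which 20 (66.7%) lay at gene ends. Of 56 Krtap genes, 10 (17.9%) were in dense bins, and of 53 keratin genes, 0.

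Other clustered families were mixed. All 9 Ugt1a genes, alternative first exons of bilirubin and xenobiotic glucuronidation enzymes, lay in bin 25, whose strongest gene-end site was at Dnajb3, a DnaJ cochaperone gene within that cluster, with 26.8-fold enrichment in replicate 1 and 7.07 in replicate 2. Of 57 clustered protocadherin genes, which encode neuronal adhesion proteins, 9 (15.8%) lay in bin 12. At Pcdha6 the values were 16.3 and 6.48, at a site shared with Gm38666. Of 397 Zfp genes, 23 (5.79%) were in dense bins, including Zfp982 with 17.7 and 7.08. Of 1110 olfactory receptor genes 2 (0.180%) and of 355 vomeronasal receptor genes 0 were, and of 71 defensin genes 0. These sensory and defensin families, which also lie in tandem arrays, thus had almost no member in a dense bin.

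Among other gene classes, 12.7% of 408 transfer RNA genes, 6.84% of 1228 miRNA genes, 4.55% of 1340 small nucleolar RNA genes, 2.69% of 12697 long non-coding RNA genes and 1.08% of 9852 pseudogenes lay in dense bins. Of 394 immunoglobulin and T cell receptor V segments, 0 did.

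The remaining bins of the first 25 overlapped between 2 and 12 protein-coding genes. In each, the gene named is the protein-coding gene at the strongest shared site within 1 kb of a gene end. At Mfsd12, a lysosomal cysteine transporter, in bin 15 the fold was 16.9 in replicate 1 and 5.63 in replicate 2. Zfp598 in bin 18, in a run of 2 dense bins that also holds the tumour suppressor Tsc2, had 18.0 and 6.01. Mast1, a microtubule-associated kinase, in bin 9 had 14.4 and 6.40. That site lay 453 bp from an annotated end of Mast1 and 8371 bp from the start listed for it. Klf1, Prdx2 and Junb are in the same bin. U2af2, a splicing factor, had 13.9 and 5.10 in bin 7, at a site also within 1 kb of Epn1. Pskh1, a kinase, had 13.2 and 5.69 in bin 21, and Actl6b, a subunit of a neuronal chromatin remodeller, had 12.2 and 7.88 in bin 10.

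Lower values stood at the other named genes. The fold was 11.6 in replicate 1 and 3.95 in replicate 2 at Cd3eap, an RNA polymerase I subunit. That site is shared with Ppp1r13l. Gm46382, whose site is shared with Cep170b, had 10.7 and 5.55. Dpf1, a chromatin remodeller subunit, had 9.98 and 3.41, Tmem160 9.60 and 4.16 and Selenow, a selenoprotein, 6.43 and 4.17. C130026I21Rik had 12.9 and 3.93, and Gm40469, in the chromosome 8 stretch, 3.55 and 2.46. Every one of these sites was higher in replicate 1 than in replicate 2, with Sfi1 the exception among the 22 named genes.

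**Figure D5:**
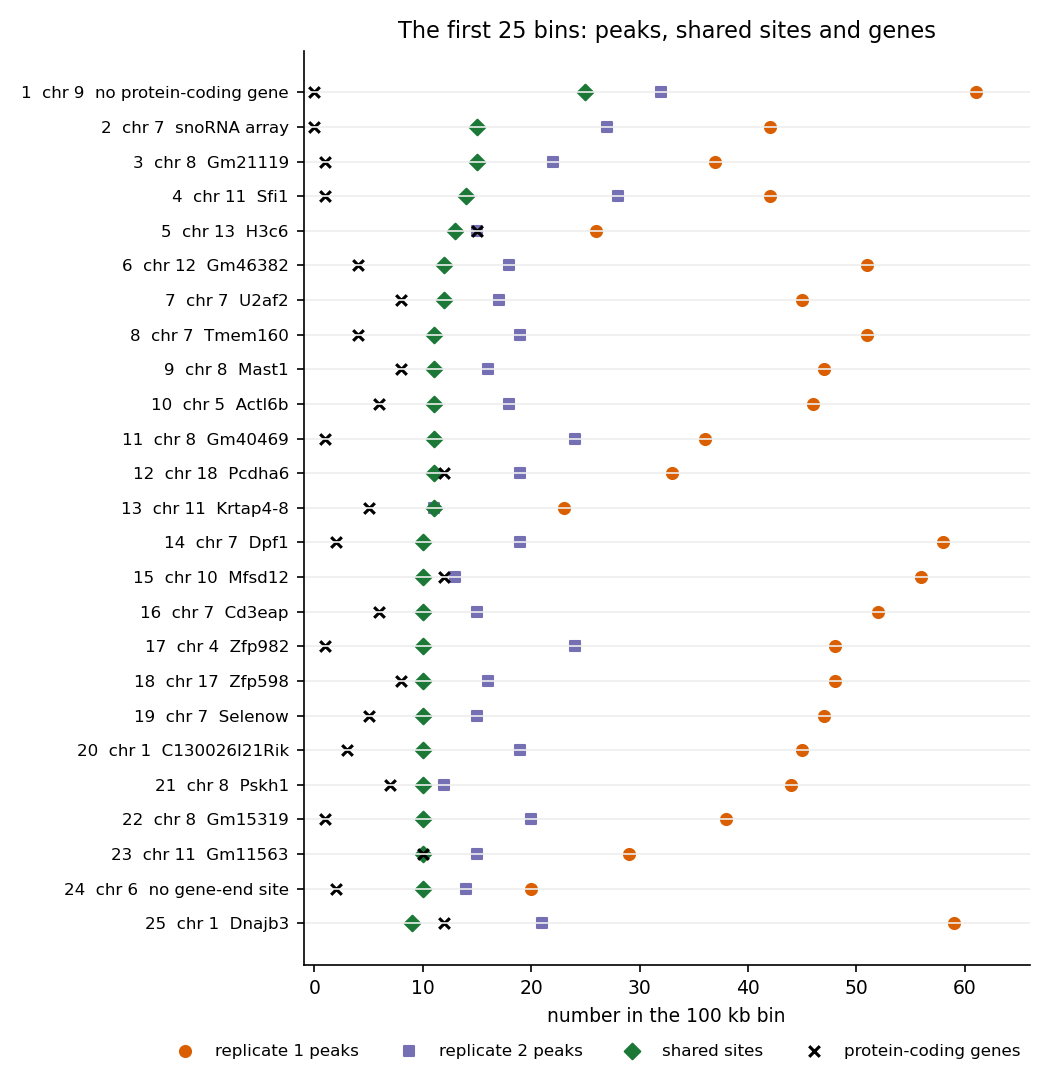
Numbers of replicate 1 peaks, replicate 2 peaks, shared sites and protein-coding genes in each of the first 25 bins, from the first at the top. The name is that of the gene at the strongest shared site within 1 kb of a gene end. Bins with 0 or 1 gene stand among bins with up to 15.

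Dense bins with few genes were not all arrays. Of the 40 with 0 or 1 protein-coding gene, 14 held a pseudogene, and 20 had no shared site at a gene end. Of their 330 shared sites, 111 lay inside a gene. All 7 shared sites at chr11:118500001-118600000 lay inside Rbfox3, a neuronal splicing factor gene, and all 6 at chr6:90700001-90800000 lay inside Iqsec1. These 2 examples were chosen after their values were seen. The bin at chr6:114500001-114600000, also picked as an example, had 9 shared sites and no annotated gene of any class.

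At the other end, 20 dense bins overlapped 10 genes or more, and those named here were picked from them as examples. The most crowded, chr2:25200001-25300000 with 16 genes, had 9 shared sites, of which 7 lay at gene ends. Neighbouring bins of the major histocompatibility region, chr17:35000001-35200000, held 14 shared sites and 25 genes, Tnf among them. In chr9:107500001-107600000, with 14 genes including the tumour suppressor Rassf1 and the hyaluronidases Hyal1, Hyal2 and Hyal3, 4 of 7 shared sites lay at gene ends.

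Genes in dense bins were shorter and more often had a site of their own. Their median length was 11156 bp, against 17984 bp for the other 20238 protein-coding genes. Of the 1393, 81.8% had a shared site in the gene or within 1 kb of it, against 56.3% of the other genes and 58.0% of all. The bins were chosen for shared sites, so that difference follows in part from the choice.

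The gene lists were set against the 6.44% of protein-coding genes that lie in dense bins, and no list was tested. Of 25 genes of AP-1 and the immediate early response, 5 (20%) lay in dense bins. Maff, a small Maf protein, had 9.93-fold enrichment in replicate 1 and 8.50 in replicate 2, Jund 7.89 and 5.26 and Fosb 7.46 and 3.59. Junb, in bin 9, and Zfp36, which destabilises inflammatory mRNAs, had no shared site of their own. The bin in which a gene lies therefore does not say that the gene itself had a site.

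Of 35 inflammatory genes, 5 (14.3%) lay in dense bins, and 3 of them encode NF-κB subunits. Relb had 15.1 in replicate 1 and 5.38 in replicate 2, within the gene, Rela 8.42 and 7.39 near an end, and Nfkb2 5.999 and 3.53 just outside an end. Tlr9, an endosomal DNA receptor, had 11.01 and 5.42. Tnf had none. Of 27 genes of alternative activation and repair, 3 (11.1%) were in dense bins: Socs1, with 10.9 and 4.75, and Socs3, with 4.28 and 4.66, both inhibitors of cytokine signalling, and Tgfb1, which had no shared site. Tgfb1 was also the only 1 of 28 genes of the Foxp3 programme of regulatory T cells (3.57%). Of 24 interferon genes, 2 (8.33%) were, Irf1 with 8.80 and 6.57 and Irf3 with none.

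Of 32 phagocytic receptor and engulfment genes, 2 (6.25%) lay in dense bins. Axl, a receptor for apoptotic cells, had 4 shared sites, the strongest at 10.1 in replicate 1 and 6.14 in replicate 2, and Fcgr3, a low-affinity IgG receptor, had 7.42 and 6.64 with pileups of 399 and 266 fragments. Of 23 genes of LC3-associated phagocytosis 1 (4.35%) was, Cyba, an NADPH oxidase subunit, with 8.63 and 4.12. Of 30 lysosomal genes 2 (6.67%) were, Ctsa with 6.38 and 4.41 and Gaa with 7.37 and 3.40. Of 30 actin and podosome genes 3 (10.0%) were, Pxn with 12.9 and 5.21, Vasp with 9.18 and 4.30 and Actb with 2.59 and 2.38. Of 28 forkhead genes 2 (7.14%) were, Foxp4 with 8.92 and 4.61 and Foxj1 with none.

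Housekeeping genes stood as high as the AP-1 list, with 6 of 30 (20%). Rplp0 had 9.71 in replicate 1 and 9.09 in replicate 2, Rps18 8.57 and 4.21, Eef2 8.98 and 3.12, and Rpl13a 4.08 and 3.42. Actb, given above, is also on this list. Of 80 cytosolic ribosomal protein genes, 9 (11.2%) lay in dense bins. Of 28 macrophage identity genes 1 (3.57%) did, Fcgr1, which lies beside the histone genes of chromosome 3 and had no shared site. Of 34 genes of other tissues 2 (5.88%) did, Ckm and Sftpc. Of 19 autophagy genes and 20 T cell markers, 0 did.

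Shared sites of the dense bins were not the strongest by fold enrichment. The median fold was 7.11 in the dense bins and 9.15 in the other bins in replicate 1, and 4.15 in the dense bins and 4.71 in the other bins in replicate 2. The mean of the replicate medians was 5.63 ± 2.09 in the dense bins and 6.93 ± 3.13 in the other bins (SD, n = 2). Those SDs describe how far the 2 libraries lie apart, not the uncertainty of the difference between the kinds of bin. Within each replicate the dense bins had the lower median, and with 2 libraries that difference was not tested. The pileup went the other way. Its replicate 1 median was 57 fragments in the dense bins, against 45 in the other bins, and its replicate 2 median was 30 in the dense bins, against 26 in the other bins. The background term by which the pileup is divided had medians of 7.80 in the dense bins and 4.64 in the other bins in replicate 1, and 7.28 in the dense bins and 5.15 in the other bins in replicate 2. It exceeded the genome-wide value of the library at 94.9% of dense-bin sites and 62.0% of other sites in replicate 1, and at 88.0% of dense-bin sites and 44.2% of other sites in replicate 2. That term is taken from the surrounding fragments where they are more than the genome-wide average, and what raised it was not tested.

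At gene ends the same order was seen. In replicate 1 the median fold was 8.71 in the dense bins and 12.1 in the other bins, and in replicate 2 it was 4.65 in the dense bins and 5.69 in the other bins. Peaks there were shorter in the dense bins, at a median of 438 bp against 567 bp in the other bins in replicate 1, and 398 bp against 538 bp in replicate 2.

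Promoters in the dense bins had a median GC content of 60% and 18 CpG, against 56.3% and 13 in the other bins. Of the 1149 starts, 459 (39.95%) had a promoter overlapped by both peaks of a shared site, against 31.8% of 19896 in the other bins. Among promoters with such a site the order turned, with a median GC content of 63.7% in the dense bins and 65.0% in the other bins. Promoters with a shared site were thus GC-rich in both kinds of bin.

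Short sequence words were counted in these 300-base promoters, on both strands except for TATAAA, and words that overlap were each counted. The GC box word GGGCGG was present in 78.0% of promoters with a shared site in dense bins, 75.8% of those in other bins and 46.7% of all 21045. CCAAT was present in 40.5%, 34.1% and 38.5%, and TATAAA in 5.88%, 2.86% and 8.29%. The forkhead word TGTTTAC was present in 1.74%, 1.69% and 3.03%, the AP-1 word TGANTCA in 3.70%, 3.84% and 7.04%, and the PU.1 word GAGGAAGT in 2.18%, 2.34% and 3.15%. These are letter matches, not sites of any factor. Over all promoters, with or without a site, the AP-1 word was present in 4.70% in dense bins and 7.17% in other bins, CCAAT in 40.03% in dense bins and 38.4% in other bins, and TATAAA in 8.96% in dense bins and 8.25% in other bins.

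Most neighbouring promoters did not resemble each other. Among 2790 pairs of promoters of different genes within 206 dense bins, the median identity was 50%, and 17 pairs in 6 bins reached 70%. These were the α-globin genes Hba-a1 and Hba-a2 at 98.0%, a group around Gm51591 and Gm51594 at up to 99.3%, keratin-associated cluster genes such as Gm11595 and Krtap4-9 at 93.5%, and histone pairs such as H3c15 and H3c14 at 90.2%. The printed H3c6 and H3c8 promoters were 53.9% identical.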

How the data were processed

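Peak lists of 2 Foxp3 CUT&RUN libraries were analysed, called per library. Per the submitters' processing notes, CASAVA 1.4 and the mm10 build were used. No aligner is named by the labels or headers. The authors called peaks, per the file headers, with MACS 2.1.1.20160309 at a q-value cutoff of 0.01 without a control library and kept duplicate fragments. Pileup was deposited as a signal, in fragments over the summit without scaling for depth. The deposited fold enrichment is a ratio of pileup to a background term of the same library, genome-wide or over 10000 bp around the peak. The deposited −log10 of the q-value was used for alternatives. The lowest pileups listed were 10 fragments in replicate 1 and 13 in replicate 2, so weaker sites could not be seen.

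From these lists, shared sites and bins were computed as the report states, with bins counted up to the last one with a summit in either list. Gene positions came from RefSeq on GRCm38.p6, and starts from its promoter table, which had 79.9% of the protein-coding genes and none on chromosome 18. Where 1 site was near several genes it was counted for each. Python 3.11.15 with pandas 2.3.3 and SciPy 1.17.1 was used. The code was tested on simulated peak lists. Intervals are exact binomial (Clopper-Pearson). Named were the protein-coding gene at the strongest shared site within 1 kb of a gene end in each of the first 25 bins, the bins at the edge of the choice, the longest run, and up to 5 members per list by shared sites. Further bins, runs and genes were named as examples outside this rule, and not each of them is marked where it stands. The bins, lists and families were chosen with earlier results of these data known. All columns used belong to the 2 libraries. Alternatives changed the overlap, bin position, peak strength, number of bins, gene-end distance and libraries used. Values of some list and marker genes are not reported here.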

Additional observations from a re-analysis of the deposited data

Results flagged for a closer look

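Shared sites were also present outside the data used above. On sequences other than chromosomes 1 to 19 and X, which the bins leave out, 142 shared sites lay on 25 sequences, with at most 30 on any of them. They are noted because these sequences entered no comparison. No control library was analysed, so whether the sites exceed a background level was not tested.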

How the results depend on the processing

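Over 74 alternative values in 12 settings, 53 stayed within the spread, interval or factor of 1.5 set for them and 21 did not. The dense bins held 7.12% of shared sites, and this share became 6.71% with any overlap of 1 bp, 9.21% with 75% overlap, 7.76% with only peaks of −log10 q of at least 5 and 8.47% with the strongest replicate 1 peaks in the number of replicate 2. It was 9.44% for all 420 bins with at least 6 shared sites and 5.25% for the 203 with at least 7. Of the 300 bins, 176 were chosen again with 1 bp overlap, 126 with 75% overlap, 165 with equal peak numbers, and 50 to 127 with 1 replicate alone. With bins moved by 50 kb, 196 of the 300 overlapped a chosen bin by 50 kb, which is a looser count. Choosing by replicate 1 alone (without replicate 2) gave 2.69 genes per bin, against 4.74, and 765 genes in the bins, against 1393. Choosing by replicate 2 alone gave 4.15 and 1211. The share of sites at gene ends, 34.1%, was 31.2% with 1 bp overlap, 37.7% with 75% overlap, 38.5% with stricter peaks, 44.2% with equal peak numbers and 55.9% with ends of 5 kb. The 83 bins next to another became 33 with 75% overlap and 52 with at least 7 shared sites. Fold enrichment did not leave its spread, the SD between the 2 libraries, in any setting (4.89 to 7.05). That spread is so wide that the mean of the other bins would also lie within it. The 11 values for fold enrichment, all among the 53, therefore say little about stability. Without peaks of 1000 fragments or more, 299 of the 300 bins were chosen again and the 7 results did not leave their limits. Nor did the results without the first bin and the chromosome 8 stretch. There 293 bins were kept by construction, because the order of all remaining bins stayed the same. The choices of at least 6 and at least 7 sites likewise had to keep 300 and 203 bins. These kept counts are among the 53 values but say nothing about stability. The settings without peaks of 1000 fragments and without the first bin and the chromosome 8 stretch were added after seeing the data. So were the choices by at least 6 or 7 sites and all alternatives for fold enrichment. The cause of these shifts was not tested. Dense and other bins were compared within each library, and no paired test was made over the 2 libraries. Peaks under the lowest listed pileups could not be shared, and no antibody control was analysed, which limits all results.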
